A study of Homo sapiens with 12 samples.

Results

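The genes of MHC class I antigen presentation were followed through WT and ATG7 KO human lens epithelial cells before and after oxidative stress. The 9 genes were taken by name from the 58735 genes of the deposited tables: the heavy chains HLA-B, HLA-C, HLA-E and HLA-F, the light chain B2M, the peptide transporter subunits TAP1 and TAP2, the loading protein TAPBP and the transactivator NLRC5. The genes were taken by name and not by a threshold on their values, and all 9 passed the filter on low counts in every comparison.

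An MHC class I molecule is a heavy chain held together with β2-microglobulin and a short peptide, and it shows fragments of the cell's own proteins to CD8 T cells and NK cells. The peptides are cut by the proteasome, carried into the endoplasmic reticulum by the TAP1 and TAP2 heterodimer, and loaded onto the heavy chain while tapasin, the product of TAPBP, holds it at the transporter. NLRC5 is the main transactivator of the class I promoters, where it acts with the RFX and NF-Y factors, and interferons raise most of these genes through IRF1 and other factors. Autophagy, for which ATG7 is required as the E1-like enzyme of LC3 and ATG12 conjugation, is known to take part in the turnover of class I molecules at the protein level, which RNA does not measure.

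RNA-seq was carried out on HLE-B3, a human lens epithelial line made immortal with a viral gene, with 3 libraries in each of 4 groups: untreated WT cells (0 h), WT cells given 200 μM H2O2 for 12 h, untreated Atg7KO cells (0 h), and Atg7KO cells given the same H2O2 for 12 h. All cells grew in DMEM/F12 with fetal bovine serum. The KO cells were made with Cas9 and an sgRNA against ATG7 and selected as clones, and the labels do not say how many clones were sequenced, so the KO groups may stand for 1 clone. The cells without H2O2 date from 0 h, so H2O2 and 12 h in culture cannot be told apart, and in bulk RNA fewer cells and less RNA per cell cannot be told apart either.

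The libraries held 15602183 to 17659496 counted reads each. Untreated KO replicate 1 stood apart from the other 2 untreated KO libraries. The mean chi-square per gene between libraries of a group was 85.8 and 87.8 for its 2 pairs and 2.16 to 4.86 for all other pairs. Results of the 9 genes that use it are therefore given with and without it, as are those of other genes where a call or direction changed, an alternative chosen with this library's behaviour already known. ATG7 mRNA was not lower in the KO groups: the mean FPKM (a read count scaled to gene length and library size) was 2.55 ± 0.313 (SD, n = 3) in untreated WT and 3.55 ± 0.205 in untreated KO cells, so the transcript level does not check the labels. Of 12 lens epithelial markers, VIM (191 to 373 FPKM), CDH2 (97.9 to 184), SIX3 (1.85 to 3.21) and PAX6 (0.505 to 1.35) were measured in every library. CRYAB reached 1.98 FPKM, while FOXE3, SOX2, PROX1, MAF, CRYAA, CRYBB1 and CDH1 were at 0.134 FPKM or lower in every library, so several defining lens markers were at or near 0. The summed level of 12 immune cell markers was 2.54 to 3.06 FPKM in untreated WT, 2.75 to 3.43 in treated WT, 2.14 to 3.16 in untreated KO and 2.12 to 2.83 in treated KO cells. No immune marker exceeded 1.99 FPKM and PTPRC, the pan-leukocyte marker CD45, was at 0.119 or lower. CD2 was at 0 in all treated WT and untreated KO libraries. Of 5 immune markers with enough counts to test in WT cells with H2O2, 2 were higher (ITGAM and CSF1R) and 2 lower (LYZ and PTPRC). Of all genes tested in that comparison, 30.9% were higher and 30.1% lower. The part of these markers in the results below was not tested.

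The genes lie in 3 places of the genome (GRCh38, as in the deposited table). On chromosome 6, in the MHC, are HLA-F (ENSG00000204642, 29722775 to 29738528, plus strand), HLA-E (ENSG00000204592, 30489467 to 30494205, plus), HLA-C (ENSG00000204525, 31268749 to 31272130, minus), HLA-B (ENSG00000234745, 31269491 to 31357188, minus), TAP2 (ENSG00000204267, 32821833 to 32838780, minus), TAP1 (ENSG00000168394, 32845209 to 32853978, minus) and TAPBP (ENSG00000231925, 33299694 to 33314387, minus). B2M (ENSG00000166710) is on chromosome 15 at 44711487 to 44718877, and NLRC5 (ENSG00000140853) is on chromosome 16 at 56989485 to 57083531, both on the plus strand. The exon lengths in the table equal those of GENCODE 29 for all 9 genes. HLA-B and HLA-C share 35 exon bases and are close paralogs, and how reads that match more than 1 HLA gene were counted is not given in the sources used here, so the split of reads among heavy chains is uncertain. On the opposite strand, HLA-F overlaps HLA-F-AS1 over 535 exon bases (12.3% of its length) and AL645939.1 over 701 (16.1%), HLA-B overlaps AL671883.2 over 542 (17.8%) and TAP1 overlaps PSMB8-AS1 over 456 (9.49%), and on the same strand TAP2 shares 2064 bases (32.3%) with the gene model AL669918.1. Reads of these pairs cannot be told apart without strand, and AL669918.1 cannot be told apart from TAP2 even with it.

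The upstream sequences of the members carry the letters through which class I genes are known to be switched, and they are printed here because the members below divide into some that moved with TAP1 and some that did not. RefSeq promoter windows (GRCh38.p14) were matched by symbol for 7 of the 9 genes, all but HLA-E and NLRC5, and 250 bases before the RefSeq start were searched on both strands. Capitals mark the interferon-stimulated response element core GAAANNGAAA, the κB letters GGGANTTTCC or GGGATTCCC, the CCAAT letters bound by NF-Y and the TGACGC letters of the CREB and ATF site. For TAP1, TAP2 and TAPBP the response element alone is shown, since the letters there fall in transcribed leaders in GENCODE 29, of TAP1, of TAPBP and, for TAP2, of the overlapping model AL669918.1.
B2M, chr15:44711361-44711413, plus: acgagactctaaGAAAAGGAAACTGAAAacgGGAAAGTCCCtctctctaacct
TAP1, chr6:32853816-32853845, minus: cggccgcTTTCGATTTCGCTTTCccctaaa
TAP2, chr6:32838778-32838807, minus: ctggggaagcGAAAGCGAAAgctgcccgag
TAPBP, chr6:33314079-33314105, minus: tttggagGAAAGTGAAAGTGAAAggag
HLA-B, chr6:31357219-31357367, minus: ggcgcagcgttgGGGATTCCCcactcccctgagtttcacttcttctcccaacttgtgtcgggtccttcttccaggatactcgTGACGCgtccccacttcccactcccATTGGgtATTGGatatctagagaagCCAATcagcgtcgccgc
HLA-C, chr6:31272132-31272296, minus: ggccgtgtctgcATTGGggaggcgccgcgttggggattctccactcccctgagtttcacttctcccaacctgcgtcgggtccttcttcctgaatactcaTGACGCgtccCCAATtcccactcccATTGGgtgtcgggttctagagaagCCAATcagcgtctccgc

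The response element letters stood in the windows of B2M, TAP1, TAP2, TAPBP and HLA-F, with 2 overlapping matches each in B2M, TAP1 and TAPBP, while 3.02% of all 35116 promoter windows held them. Only these exact letters were searched, so the HLA-B and HLA-C windows, without a match, may still hold a variant of the element. The κB letters stood in HLA-B, B2M and TAP1, against 0.888% of all windows. The CCAAT letters occurred 3 times in HLA-B, 4 times in HLA-C, 2 times in HLA-F and once each in B2M and TAP1 (32% of all windows), and TGACGC occurred in HLA-B, HLA-C and TAP2 (7.67%). A second, downstream RefSeq start of TAP1 held none of these letters. The HLA-B and HLA-C windows were 89% identical, and the HLA-C window lacks the κB match by these letters. The matches are descriptions of sequence, and binding was not measured.

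**Figure D1:**
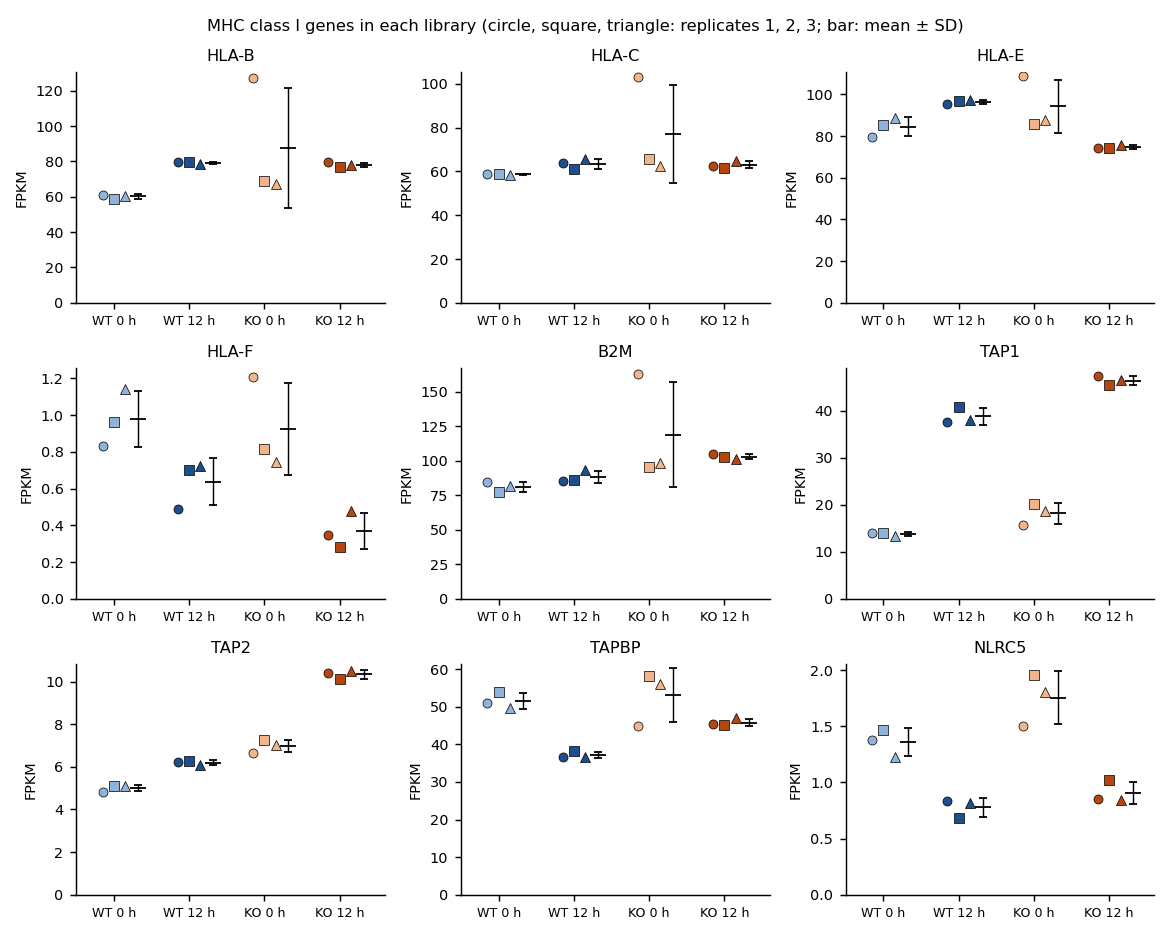
FPKM of each of the 9 genes (y axes, linear from 0) in the 12 libraries, grouped as WT 0 h, WT 12 h, KO 0 h and KO 12 h, with replicates 1, 2 and 3 as circle, square and triangle and the mean ± SD (n = 3) as a black bar beside each group. TAP1 rose from 13.3 to 14.0 FPKM in untreated WT to 37.6 to 40.8 in treated WT libraries, and the circle of untreated KO lies far above its group for HLA-B, HLA-C, HLA-E and B2M.

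The levels in untreated WT cells spanned from abundant to barely measured (plot of FPKM by library). HLA-E was highest at 84.6 ± 4.51 FPKM (SD, n = 3), rank 336 of the 27868 genes with a value above 0, followed by B2M at 81.2 ± 3.79, and the libraries of these 2 overlapped. HLA-B followed at 60.2 ± 1.30 and HLA-C at 58.7 ± 0.282, again overlapping, and then TAPBP at 51.5 ± 2.15. TAP1 was at 13.7 ± 0.369 and TAP2 at 5.01 ± 0.156, so the 2 subunits of the transporter differed in mRNA level. NLRC5, at 1.36 ± 0.122 FPKM, and HLA-F, at 0.979 ± 0.155, closed the order with libraries that did not overlap. In KO cells B2M was highest both without (119 ± 38.1) and with H2O2 (103 ± 1.60), and with H2O2 it was followed by HLA-B (78.2 ± 1.25) and HLA-E (74.6 ± 0.809), whereas HLA-E (96.3 ± 1.04) was highest in treated WT cells. TAP1 moved from rank 3416 in untreated to rank 1186 in treated WT cells, and from 2687 to 928 in KO cells.

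The first comparison asked how WT cells changed after 12 h with H2O2. TAP1 was the member that rose most, TAP2, HLA-B and HLA-E rose slightly, and TAPBP, NLRC5 and HLA-F fell. Thus 4 of 9 genes were higher and 3 lower at an adjusted p under 0.01 (edgeR quasi-likelihood test), where 30.9% of all 15913 genes tested were higher and 30.1% lower, and the median log2 fold change of the members was 0.12 against -0.01 over all genes. The shares called were close to or little above the background, so the direction of single members rather than their number is described here.

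TAP1, which forms the ATP-driven peptide channel with TAP2, was at 13.9, 14.0 and 13.3 FPKM in the 3 untreated and 37.6, 40.8 and 38.0 in the 3 treated WT libraries. The groups lay far apart, and the log2 fold change was 1.5 ± 0.05 (SE, adjusted p = 1.37e-29), a 2.82-fold rise. TAP1 was also the single member past a stricter rule with a log2 fold change beyond 1 and a mean FPKM above 1 in a group, which 12.5% of all genes passed. TAP2 was at 4.83, 5.08 and 5.12 FPKM before and at 6.21, 6.29 and 6.07 after H2O2. The increase of TAP2 was smaller, by 0.30 ± 0.07 on the log2 scale (adjusted p = 0.000142), so the ratio of TAP1 to TAP2 per length moved from 2.74 ± 0.136 to 6.27 ± 0.212 (SD, n = 3).

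Among the heavy chains of treated WT cells, HLA-B, a classical heavy chain that presents peptides to CD8 T cells, rose from 61.3, 58.8 and 60.5 FPKM to 79.5, 79.8 and 78.5. All treated libraries were above all untreated ones, with a log2 fold change of 0.39 ± 0.04 (adjusted p = 5.17e-11), a call that was lost when all 12 libraries shared 1 fit (adjusted p = 0.0882). HLA-C, the other classical chain measured and also a ligand of killer-cell receptors, did not pass the test (log2 fold change 0.11 ± 0.05, adjusted p = 0.0345, and -0.03 with the length offset), at 58.8, 58.9 and 58.4 FPKM before and 63.8, 61.1 and 65.7 after. HLA-E, which presents leader peptides of other class I chains to the NK receptor CD94/NKG2A, rose by 0.18 ± 0.04 on the log2 scale (adjusted p = 0.000306), from 79.7, 85.3 and 88.7 FPKM to 95.2, 96.7 and 97.1. This small rise lost its call without untreated WT replicate 1 (0.13, adjusted p = 0.0203) and with an offset for gene length (0.09, adjusted p = 0.0583). HLA-F, a non-classical chain with 36 to 88 counts per WT library, fell by 0.62 ± 0.21 (adjusted p = 0.00777), and that call was lost without untreated WT replicate 2 or 3 or treated WT replicate 1 (adjusted p = 0.0175, 0.0529 and 0.0702). B2M missed the threshold at 0.12 ± 0.04 (adjusted p = 0.0123), at 77.1 to 84.6 FPKM before and 85.6 to 93.6 after, and it was called higher with RLE scaling (0.13, adjusted p = 0.00602) and with the length offset (0.20, adjusted p = 8.57e-05).

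TAPBP and NLRC5 went the opposite way to TAP1. TAPBP was at 51.0, 53.9 and 49.7 FPKM in untreated and 36.7, 38.2 and 36.7 in treated WT libraries, with a log2 fold change of -0.48 ± 0.04 (adjusted p = 4.27e-13). NLRC5 was at 1.38, 1.47 and 1.23 FPKM before and 0.833, 0.682 and 0.821 after, a log2 fold change of -0.81 ± 0.11 (adjusted p = 1.93e-08). Neither gene had overlapping libraries, and both calls held in all 6 fits without 1 library. HLA-B and HLA-E were thus higher, and HLA-F lower, in the cells in which NLRC5 mRNA was lower, and the activity of the NLRC5 protein was not measured.

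**Figure D2:**
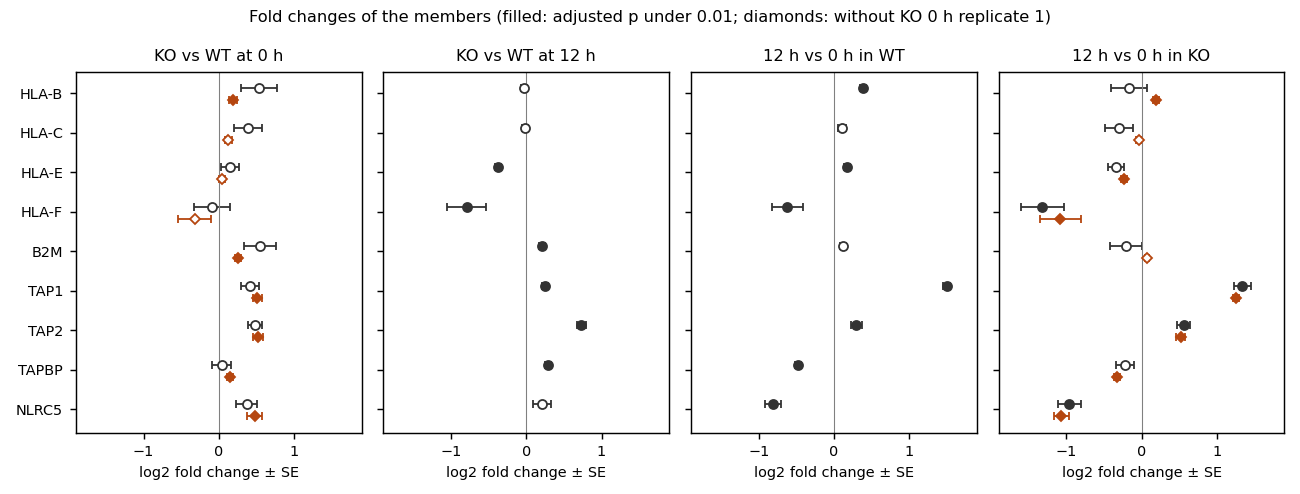
Log2 fold change (x axis) with its SE for each gene (rows) in the 4 pairwise comparisons, as circles for all libraries and diamonds without untreated KO replicate 1. Filled symbols passed an adjusted p under 0.01: TAP1 lies at 1.5 and 1.34 in the 2 H2O2 comparisons. The SE of HLA-B, HLA-C, HLA-E and B2M is wider with untreated KO replicate 1 than without it, while that of HLA-F changes little.

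The same treatment was compared in KO cells. TAP1 rose again, from 15.8, 20.1 and 18.7 FPKM to 47.4, 45.4 and 46.5, with a log2 fold change of 1.34 ± 0.11 (adjusted p = 0.000185). TAP2 rose by 0.56 ± 0.09 (adjusted p = 0.00216), from 6.66, 7.24 and 7.03 FPKM to 10.4, 10.1 and 10.5. NLRC5 fell by 0.96 ± 0.15 (adjusted p = 0.00214), from 1.5, 1.96 and 1.81 FPKM to 0.853, 1.02 and 0.847, and HLA-F fell by 1.32 ± 0.29 (adjusted p = 0.00956) with 20 to 36 counts per treated library. Hence 2 genes were higher and 2 lower, against 13.6% and 12.4% of 15475 genes, with a median of -0.22 for the members and -0.03 for all genes. TAP1 alone passed the stricter rule, as did 11.2% of all genes. The call of TAP2 was lost without untreated KO replicate 3 or any 1 of the treated KO libraries (adjusted p at most 0.0172), that of NLRC5 without treated KO replicate 1 or 3 (at most 0.016), and that of HLA-F without any 1 library but untreated KO replicate 1 (at most 0.0447).

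The 5 other genes were not called in KO cells with all 6 libraries, and their values moved with untreated KO replicate 1. HLA-B was at 127 FPKM in that library and at 69.0 and 67.2 in the other untreated KO libraries, against 79.5, 77.1 and 77.9 after H2O2. The log2 fold change of HLA-B was -0.17 ± 0.24 with all libraries (adjusted p = 0.601) and 0.19 without that library (adjusted p = 1.89e-06), so its direction turned. B2M was at 163 FPKM in that library and at 95.6 and 98.4 in the others, against 105, 103 and 101 with H2O2, and its log2 fold change turned from -0.21 ± 0.21 to 0.07 without passing the test either way (adjusted p = 0.444 and 0.0277). HLA-E was at 109, 86.0 and 87.7 FPKM before and 74.3, 74.1 and 75.6 after, with no overlap. Its log2 fold change was -0.34 ± 0.11 (adjusted p = 0.045), it was called lower when all 12 libraries shared 1 fit (adjusted p = 0.00548), and without the library it was -0.23 (adjusted p = 1.7e-09). TAPBP, at 44.9, 58.2 and 56.1 FPKM before and 45.3, 45.1 and 47.0 after, had a log2 fold change of -0.22 ± 0.12 (adjusted p = 0.192) and of -0.33 without the library (adjusted p = 9.71e-18). HLA-C did not pass in either fit, at -0.30 ± 0.19 and at -0.04. Without untreated KO replicate 1, 3 genes were higher (HLA-B, TAP1 and TAP2) and 4 lower (HLA-E, HLA-F, TAPBP and NLRC5), where 29.8% of all genes were higher and 28.6% lower.

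The difference between the 2 responses was tested as an interaction in all 12 libraries. HLA-E was the single member called: its log2 fold change was 0.18 in WT and -0.34 in KO cells, with a difference of -0.52 ± 0.12 on the log2 scale (adjusted p = 0.00825). In all, 0 members were higher and 1 lower, against 7.02% and 7.01% of 16856 genes. For the higher direction the unadjusted p was under 0.05 for 1 gene (TAP2, 0.26 ± 0.10, adjusted p = 0.0551), and DESeq2 and limma called 0. Without untreated KO replicate 1, the difference was -0.40 for HLA-E (adjusted p = 9.26e-09), -0.19 for HLA-B (adjusted p = 0.00457) and -0.24 for TAP1 (adjusted p = 0.00232), and these 3 of 9 genes were lower where 17.8% of all genes were higher and 16.3% lower. The rise of TAP1 was therefore smaller in KO than in WT cells by this fit, and by the fit of all libraries its difference was -0.15 ± 0.12 (adjusted p = 0.355). The HLA-E difference was called in the 3 fits that left out an untreated KO library and lost in the 9 that left out any other library (adjusted p at most 0.0284). With the length offset it was -0.32 (adjusted p = 0.0181).

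The effect of ATG7 deletion without stress was compared next. No member passed the test with all libraries: 0 of 9 were higher and 0 lower, against 4.42% and 3.28% of 15357 genes, although 8 of 9 log2 fold changes were above 0 and their median was 0.39 against 0.01 for all genes. The stricter rule, which 3.5% of all genes passed, was likewise met by 0. At an unadjusted p under 0.05 there were 4 higher (B2M, TAP1, TAP2 and NLRC5) and 0 lower, while DESeq2 called 1 higher and limma 0. TAP2 came nearest, at 0.48 ± 0.09 (adjusted p = 0.0126), and its KO libraries (6.66 to 7.24 FPKM) all lay above the WT libraries (4.83 to 5.12). The log2 fold change of TAP1 was 0.41 ± 0.12 (adjusted p = 0.0475), with KO libraries of 15.8 to 20.1 FPKM above WT libraries of 13.3 to 14.0. For B2M it was 0.55 ± 0.21 (adjusted p = 0.114), again without overlap. For HLA-B the difference was 0.54 ± 0.24 (adjusted p = 0.166) and for HLA-C 0.39 ± 0.19 (adjusted p = 0.198), and in both the KO libraries lay above the WT libraries with replicate 1, at 127 and 103 FPKM, far above the rest.

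With untreated KO replicate 1 left out, 6 of 9 genes were higher and 0 lower, where 18.2% of 15848 genes were higher and 17.9% lower. Of 114 other genes tested between the members on chromosome 6, 31 were higher and 4 lower in this fit. TAP2 was higher by 0.52 (adjusted p = 9.42e-11) and TAP1 by 0.51 (adjusted p = 2.55e-16) on the log2 scale. NLRC5 was higher by 0.48 (adjusted p = 9.35e-06), B2M by 0.26 (adjusted p = 1.32e-08), HLA-B by 0.19 (adjusted p = 0.000267) and TAPBP by 0.15 (adjusted p = 0.0019). HLA-C (0.13, adjusted p = 0.0138), HLA-E (0.05) and HLA-F (-0.32) did not pass. The 2 transporter subunits and NLRC5 thus had larger differences without the library than with it, and HLA-B, HLA-C and B2M smaller ones. In the 5 fits that left out another library instead, 0 members were called.

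After 12 h with H2O2, KO and WT cells were compared in libraries with little spread within each group. TAP2, TAPBP, TAP1 and B2M were higher in KO cells, HLA-E and HLA-F lower, and HLA-B and HLA-C were at nearly the same level in both. The 4 higher and 2 lower genes stood against 27.7% and 27.9% of 15909 genes, and the median was 0.21 for the members and 0 for all genes. None passed the stricter rule, which 7.46% of all genes did.

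TAP2 had the largest difference among the genes higher in KO cells, with 10.4, 10.1 and 10.5 FPKM in KO and 6.21, 6.29 and 6.07 in WT cells, with a difference on the log2 scale of 0.73 ± 0.06 (adjusted p = 4.39e-13) or 1.66-fold. TAPBP was 1.22-fold higher (0.29 ± 0.04, adjusted p = 5.05e-08), at 45.3, 45.1 and 47.0 FPKM against 36.7, 38.2 and 36.7. TAP1 was 1.19-fold higher (0.25 ± 0.04, adjusted p = 1.49e-06), at 45.4 to 47.4 FPKM against 37.6 to 40.8. The ratio of TAP1 to TAP2 was 4.50 ± 0.0767 in KO against 6.27 ± 0.212 in WT cells, so the excess of TAP1 over TAP2 mRNA was smaller in KO cells. B2M, the shared light chain, was 1.16-fold higher (0.21 ± 0.04, adjusted p = 4.34e-06), with all KO libraries at 101 FPKM or more and all WT libraries at 93.6 or less.

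HLA-E was at 74.3, 74.1 and 75.6 FPKM in KO and 95.2, 96.7 and 97.1 in WT cells, with a difference on the log2 scale of -0.38 ± 0.04 (adjusted p = 8.01e-11). HLA-F was at 0.350, 0.280 and 0.478 FPKM against 0.489, 0.703 and 0.723, also without overlap, with -0.79 ± 0.26 (adjusted p = 0.00941), and its call was lost without treated WT replicate 2 or 3 or treated KO replicate 1 or 2 (adjusted p at most 0.0644). HLA-B (-0.03 ± 0.04, adjusted p = 0.519) and HLA-C (-0.02 ± 0.04, adjusted p = 0.676) differed by less than the spread between replicates, and NLRC5 did not pass at 0.21 ± 0.12 (adjusted p = 0.138). With an offset for gene length these 3 changed sign, to 0.08, 0.13 (adjusted p = 0.00822) and -0.01. When all 12 libraries shared 1 fit, only TAP2 among the higher and HLA-E among the lower genes were called.

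**Figure D3:**
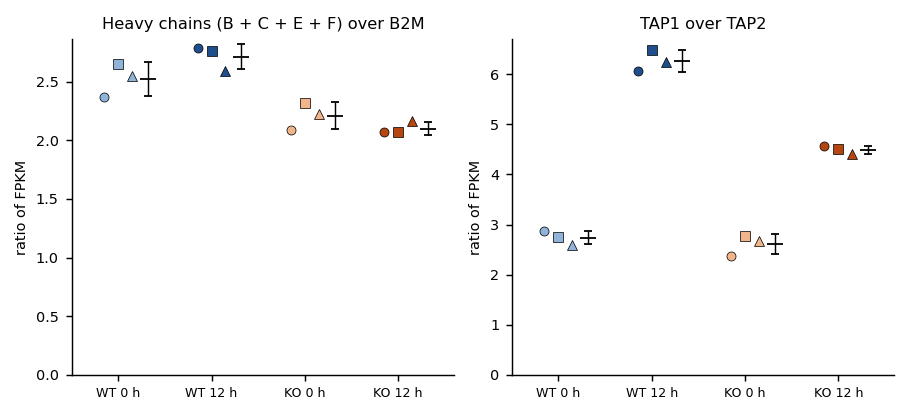
Left, the summed FPKM of HLA-B, HLA-C, HLA-E and HLA-F divided by that of B2M. Right, the FPKM of TAP1 divided by that of TAP2. Symbols are single libraries (circle, square and triangle for replicates 1, 2 and 3), bars are the mean ± SD (n = 3) and both y axes start at 0: the heavy chain ratio is 2.07 to 2.32 in KO and 2.37 to 2.79 in WT libraries.

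Heavy and light chain transcripts were compared per length, since a class I molecule holds 1 of each. The summed FPKM of the 4 heavy chains was 204 ± 3.98 in untreated WT, 240 ± 2.0 in treated WT, 260 ± 69.4 in untreated KO and 216 ± 2.84 in treated KO cells (SD, n = 3). Divided by B2M in the same library, the ratio was 2.37, 2.65 and 2.55 in untreated and 2.79, 2.76 and 2.59 in treated WT libraries. In KO cells it was 2.09, 2.32 and 2.22 without and 2.07, 2.07 and 2.16 with H2O2. All 6 KO libraries were below all 6 WT libraries, also in untreated KO replicate 1, whose heavy chain sum of 340 FPKM and B2M of 163 FPKM were both the highest of their kind. The ratio was not tested, and it does not contain every class I heavy chain of the genome.

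The other genes of the pathway were taken from lists. Of the 5 immunoproteasome genes, which encode the interferon-inducible catalytic subunits and the PA28 activator, 2 were higher in untreated KO cells: PSMB9 (1.64 ± 0.27, adjusted p = 0.00677) and PSME2 (1.42 ± 0.22, adjusted p = 0.00569). The share of all genes called higher was 4.42% there. Without untreated KO replicate 1, all 5 were higher with a median of 0.93, where 18.2% of all genes were. After H2O2, beside 27.7% of all genes higher and 27.9% lower, 4 were higher in KO than in WT cells (PSME2 0.69, PSMB9 0.68, PSME1 0.65 and PSMB8 0.41) and PSMB10 was lower (-0.72 ± 0.18, adjusted p = 0.000682). PSMB5, a catalytic subunit of the constitutive proteasome, was higher in KO cells as well, by 1.33 ± 0.23 without (adjusted p = 0.00872) and by 0.50 ± 0.04 with H2O2 (adjusted p = 1.77e-11), while PSMB6 (-0.34) and PSMB7 (-0.62) were lower with H2O2. The members that feed and load peptide (TAP1, TAP2 and TAPBP) and 4 of the 5 immunoproteasome genes were thus higher in treated KO cells, while the classical heavy chains were not. Among 4 loading partners outside the members, 1 was higher and 2 were lower there, as given below.

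TAP1 and PSMB9 lie head to head on opposite strands, with RefSeq starts 488 bases apart, and no exon base is shared. PSMB9 was at 2.60, 3.31 and 2.69 FPKM in untreated and 2.88, 3.36 and 3.43 in treated WT cells, at a log2 fold change of 0.16 ± 0.13 (adjusted p = 0.269), beside the 1.5 of TAP1. In KO cells PSMB9 went from 13, 6.94 and 7.07 FPKM to 5.87, 5.03 and 4.62 (-0.80 ± 0.26, adjusted p = 0.042), beside the 1.34 of TAP1, and without untreated KO replicate 1 it was lower (-0.45, adjusted p = 1.47e-05). PSMB8, on the other side of TAP1, rose by 0.48 ± 0.07 in WT cells (adjusted p = 6.62e-08) and had -0.15 ± 0.30 in KO cells (adjusted p = 0.701), which turned to a rise of 0.31 without untreated KO replicate 1 (adjusted p = 9.61e-06). The rise of TAP1 with H2O2 was therefore larger than that of either neighbour in each cell line, by values set side by side and without a test between genes.

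**Figure D4:**
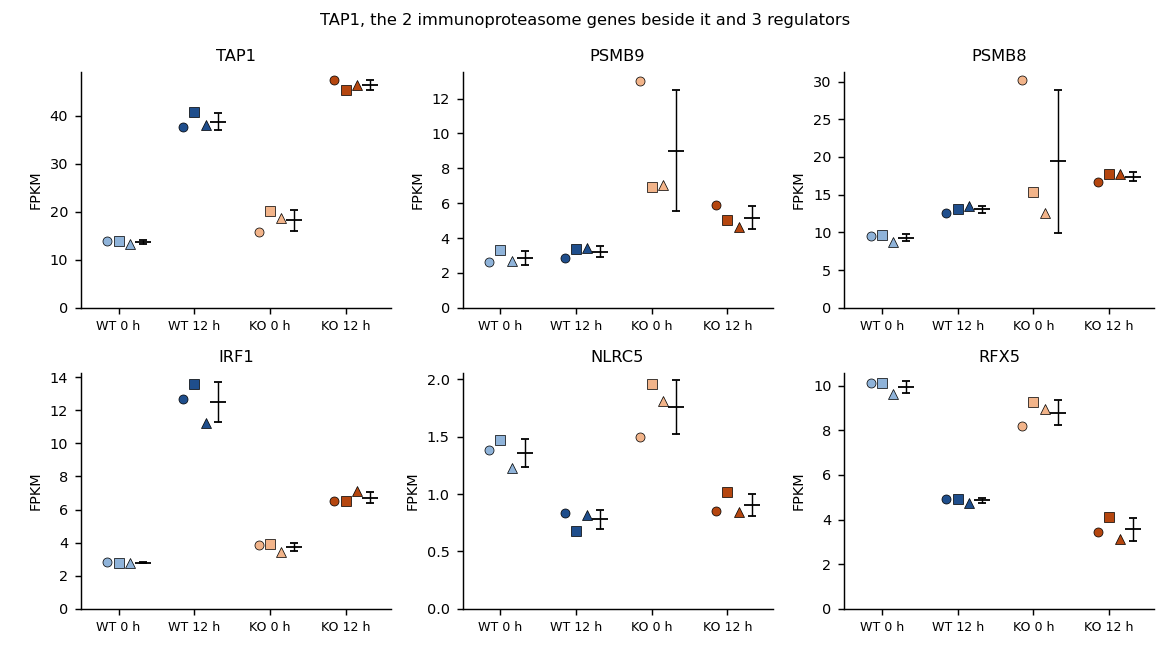
FPKM (y axes, linear from 0) of TAP1, of PSMB9 and PSMB8 on either side of it, and of the regulators IRF1, NLRC5 and RFX5 in the 12 libraries, with symbols for replicates and bars for the mean ± SD (n = 3) as in the plot of all members. IRF1 rises with TAP1 in both lines, from 2.78 to 2.80 up to 11.2 to 13.6 FPKM in WT, while NLRC5 and RFX5 fall.

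Of 14 interferon signalling genes, 5 rose and 5 fell in WT cells with H2O2, beside 30.9% of all genes higher and 30.1% lower. In KO cells 6 rose and 1 fell, beside 13.6% and 12.4% of all genes. Without untreated KO replicate 1, 8 rose and 3 fell in KO cells, beside 29.8% and 28.6% of all genes. IRF1, a factor that binds the response element letters of class I genes, was at 2.80, 2.78 and 2.79 FPKM in untreated and 12.7, 13.6 and 11.2 in treated WT cells (2.16 ± 0.07, adjusted p = 5.58e-31). In KO cells it rose from 3.87, 3.89 and 3.45 to 6.53, 6.51 and 7.13 FPKM (0.84 ± 0.09, adjusted p = 0.000558), and this response was smaller than in WT cells (-1.31 ± 0.12, adjusted p = 2.99e-05). In treated cells IRF1 was thus lower in KO (-0.90 ± 0.06, adjusted p = 1.02e-13) where TAP1 was higher. SOCS1, a feedback inhibitor of JAK signalling, showed the same pattern, with 3.76 ± 0.19 in WT, 1.49 ± 0.21 in KO and a difference of -2.27 ± 0.29 (adjusted p = 0.000241). Without untreated KO replicate 1 the differences were -1.28 for IRF1 and -2.10 for SOCS1, both still called. Of 6 interferon ligand genes, 1 had enough counts to test (IFNE), and it fell in WT cells with H2O2 (-1.02, adjusted p = 1.42e-05) and, without untreated KO replicate 1, in KO cells (-0.69, adjusted p = 0.000605).

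Of 8 factors of the class I promoter, 3 rose and 4 fell in WT cells, 2 rose and 1 fell in KO cells (3 and 3 without untreated KO replicate 1), and 2 were higher and 3 lower in treated KO than in treated WT cells. The shares over all genes were 30.9% and 30.1%, 13.6% and 12.4% (29.8% and 28.6% without that library), and 27.7% and 27.9%, so these counts were near the background. RFX5, the RFX subunit with which NLRC5 acts, was at 10.1, 10.1 and 9.63 FPKM in untreated and 4.92, 4.94 and 4.73 in treated WT cells (-1.04 ± 0.07, adjusted p = 1.06e-17). It fell in KO cells as well (-1.31 ± 0.13, adjusted p = 0.000344). The NF-Y subunits NFYA and NFYC rose in both lines, NFYA by 0.34 in WT and 0.78 in KO cells. NFYB, another NF-Y subunit, did not rise with them. It was at 13.9, 12.5 and 13.4 FPKM in untreated and 9.18, 10.3 and 10.7 in treated WT cells. In KO cells NFYB was at 15.8, 11 and 12 FPKM before and 11.2, 11.1 and 10.3 after. NLRC5 and RFX5 thus fell together while NFYA and NFYC rose and NFYB did not, and HLA-B rose in the same WT libraries.

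Peptide trimming and loading partners were also read. ERAP2, an aminopeptidase that trims peptides in the endoplasmic reticulum, was higher in KO cells without (0.57 ± 0.09, adjusted p = 0.0048) and with H2O2 (0.89 ± 0.05, adjusted p = 1.25e-16), and ERAP1 was higher with H2O2 (0.73 ± 0.05, adjusted p = 4.69e-14) and, without untreated KO replicate 1, also in untreated cells (0.49, adjusted p = 1.51e-15). CALR, the chaperone calreticulin of the loading complex, was at 348, 338 and 351 FPKM in untreated and 397, 390 and 384 in treated WT cells, and at 252, 250 and 253 in treated KO cells. The difference between treated lines was -0.64 ± 0.03 (adjusted p = 7.12e-18), and the responses to H2O2 differed (-0.56 ± 0.11, adjusted p = 0.00304, and -0.47 without untreated KO replicate 1), in the same direction as for HLA-E. CANX, the chaperone of newly made heavy chains, was slightly higher in treated KO cells (0.21). TAPBPL, another gene of the loading list, was lower there (-0.62 ± 0.19, adjusted p = 0.00518). Of the 4 loading partners, 1 was thus higher and 2 lower in treated KO cells, beside 27.7% and 27.9% of all genes.

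The members on chromosome 6 were set beside the 304 other genes between the outermost of them. In the interaction, 122 of these could be tested, with 0 higher and 15 lower, beside 7.02% and 7.01% of all genes. Their median was -0.32 beside -0.40 for the 7 members on this chromosome, while the median of all genes was -0.03. Without untreated KO replicate 1, 5 were higher and 33 lower of 125 genes, beside 17.8% and 16.3% of all genes. The median of the region was then -0.26 and that of the 7 members -0.19. In treated KO against treated WT cells, 22 of 115 were higher and 37 lower (median -0.05), beside 27.7% and 27.9% of all genes. In untreated KO against untreated WT cells, 5 of 109 were higher and 0 lower (median 0.15), beside 4.42% and 3.28% of all genes. Without untreated KO replicate 1, 31 of 114 were higher and 4 lower (median 0.07), beside 18.2% and 17.9%. Low interaction values were therefore not particular to the class I genes of this region. Without that library, the lean to higher calls in untreated KO cells was not particular to them either. No test was made of these patterns.

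The members did not vary as 1 unit. Over the 12 libraries, which share 4 groups and a common scaling, Pearson's r of log2 values was 0.89 for HLA-B with HLA-C and 0.86 for TAPBP with NLRC5, but -0.844 for HLA-F with TAP1. Leaving out untreated KO replicate 1 moved HLA-B with TAP1 from 0.288 to 0.969 and B2M with TAP2 from 0.421 to 0.90, while TAPBP with NLRC5 stayed at 0.906. The mean profile of the 9 genes was most like APMAP (r = 0.985), ERP29 (0.975), IGFBP6 (0.97), MGST3 (0.968) and AAMP (0.967) among 10933 genes. Without that library, the 5 most alike were RPL36AL (0.961), YIF1B, RNF24, PHF1 and CAPN2 (0.942), so the first list rested on 1 library. These r values describe 12 or 11 libraries and were not tested.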

How the data were processed

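The authors sequenced total RNA of HLE-B3 cells in 12 libraries. Per the submitters' processing notes, HISAT2 2.0.5, featureCounts 1.5.0-p3 and GRCh38 were used. Strand setting and multi-mapping are not given in the sources used here. The deposited counts are whole reads per gene, not normalized. FPKM values deposited by the authors follow from these counts, gene length and library size (checked: 1 factor per library, 0.949 to 1.02). Totals were 15602183 to 17659496, median 17205174. Counts were tested with edgeR 4.0.16 in R 4.3.3 (TMM, filterByExpr with a minimum count of 10, robust quasi-likelihood test, Benjamini-Hochberg over all genes, call at 0.01), on the 6 libraries of each comparison, and on all 12 for the interaction. The labels do not say that replicates were separate cultures, so p-values may measure technical spread. Fits were tested on simulated data. Alternatives were DESeq2 1.42.0, limma 3.58.1 on log2 FPKM, other scaling and filters, a gene length offset, a replicate block and leaving out each library. All 9 members are named, with PSMB8, PSMB9, IRF1, RFX5, ERAP1, ERAP2, CALR and at most 4 called genes of each list with the largest change. The other genes named (PSMB10, NFYA, NFYB, CANX) belong to those lists. Some items are not reported here. The members and lists were chosen with earlier results of these data known.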

Additional observations from a re-analysis of the deposited data

Results flagged for a closer look

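HLA-E was the single member whose response to H2O2 differed between the lines by a test of the difference itself. The log2 response in KO cells minus that in WT cells was -0.52 ± 0.12 (edgeR interaction, adjusted p = 0.00825). Over the 12 fits that left out 1 library the difference ranged from -0.58 to -0.40, with adjusted p between 9.26e-09 and 0.0284, and the call was lost in 9 of them. It was also lost with a replicate block (adjusted p = 0.0152), in all 3 limma fits (0.0106 to 0.024) and with an offset for gene length, where the difference was -0.32 (adjusted p = 0.0181). In WT cells all 3 treated libraries were above all 3 untreated ones, and in KO cells all 3 treated were below. Untreated KO replicate 1, at 109 FPKM against 86.0 and 87.7, moved with this result, and without it the difference was -0.40. CALR differed in the same direction, and its part in the result was not tested.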

How the results depend on the processing

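Across 708 recomputed fold changes of the 9 genes, 621 kept their direction and their side of the threshold, 14 changed sign, and 54 lost and 19 gained a call. In untreated KO against WT cells, DESeq2 called 1 gene higher, a fit of all 12 libraries 2 and a gene length offset 2, with 2307, 3154 and 1803 genes called overall against 1182, and limma called 719, 689 and 349 overall (pseudocount 1, 0.1, and 1 without a filter). In treated cells the fit of all libraries left 1 higher and 1 lower (4876 overall against 8847), and DESeq2, no filter, the length offset and all 3 limma fits left 1 lower (5266 overall for limma without a filter). Without a filter HLA-B was at 0.00 and HLA-C at 0.01, and with the length offset HLA-B was at 0.08, HLA-C at 0.13 (adjusted p = 0.00822, a gained call) and NLRC5 at -0.01. In WT cells with H2O2, the fit of all libraries called 2 higher, limma without a filter 1 lower, and HLA-C was at -0.03 with the length offset. In KO cells limma called 1, 1 and 0 lower, with 2194 overall without a filter and 6528 overall in the fit of all libraries, against 4025. In the interaction, no filter called 2 lower (4054 overall against 2366), and the length offset and the limma fits called 0 (1525 overall without a filter). The cause of these shifts was not tested.

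Leaving out 1 library gave 0 to 6 genes higher in untreated cells (287 to 5734 overall), 4 higher and 1 to 2 lower in treated cells (7993 to 8941), 3 to 4 higher and 2 to 3 lower in WT with H2O2 (9022 to 9779), 1 to 3 higher and 0 to 4 lower in KO with H2O2 (1767 to 9341), and 0 to 3 lower in the interaction (1332 to 5974). Sign changes among these were HLA-F (-0.32 to 0.04) and TAPBP (-0.03 to 0.15, with 0.00) in untreated cells, HLA-C (-0.05 to 0.01, with 0.00) in treated cells, and HLA-B (-0.33 to 0.19) and B2M (-0.35 to 0.07) in KO cells with H2O2. Replicate numbers did not pair the libraries: 18 correlations of same-numbered deviations were -0.0691 to 0.0976, and 0 exceeded 0.1. A replicate block left 0 members and 499 genes in untreated cells, 1 higher and 1 lower in KO cells with H2O2, and 0 in the interaction, and changed no other count of members. Limits of depth bear on HLA-F, with 20 to 88 counts per library, which the filtered limma fits did not always test.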

Other observations

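Of 12 class I-like genes, 9 had enough counts to test. With H2O2, 7 rose and 1 fell in WT cells, where 30.9% of all genes were higher and 30.1% lower. In KO cells 5 rose and 1 fell, beside 13.6% and 12.4% of all genes. Without untreated KO replicate 1, 6 rose and 3 fell in KO cells, beside 29.8% and 28.6% of all genes. ULBP1, a stress ligand of the NK receptor NKG2D, was at 0.840, 0.692 and 0.896 FPKM in untreated and 8.14, 8.02 and 6.68 in treated WT cells (log2 fold change 3.23). In KO cells it was at 0.174, 0.214 and 0.223 before and 2.77, 2.91 and 3.08 after (3.81), and treated KO cells were below treated WT cells (-1.39). ULBP2 rose by 2.05 in WT and 2.33 in KO cells. MR1, which presents vitamin B metabolites to MAIT cells, rose by 1.80 and 1.48, and MICB, another NKG2D ligand, by 0.70 and 0.87. HFE, a regulator of iron uptake, fell by 1.17 and 1.32.

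CD74, the invariant chain of MHC class II, was at 0.523, 0.820 and 0.778 FPKM in untreated WT and 3.83, 3.77 and 3.44 in untreated KO cells, a difference of 2.37 on the log2 scale (edgeR, adjusted p = 0.000439), and it was 2.08 with H2O2 (adjusted p = 1.07e-12). Of 7 class II genes tested in untreated cells, 1 was higher and 0 lower, beside 4.42% and 3.28% of all genes. Without untreated KO replicate 1, HLA-DRA was lower (-2.17, adjusted p = 0.002). CIITA, the class II transactivator, did not pass the test in any of the 4 pairwise comparisons with all libraries, and without that library it was lower in KO cells with H2O2 (-1.09, adjusted p = 0.00347).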
